A study of Mus musculus with 3 samples.

Results

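The 10 transcription factor genes described here steer T cell fate: *Tcf7*, *Lef1*, *Bcl6*, *Prdm1*, *Maf*, *Tox*, *Tox2*, *Tbx21*, *Eomes* and *Id2*. Their RNA was followed across the lymphocytes of inflamed mouse nerve. They were chosen by name, as 10 of the 32285 gene rows of the count matrices, and all 10 rows were found in each matrix. The data are single-cell RNA sequencing counts of CD45+ cells, that is immune cells, sorted by flow cytometry after the sciatic nerves of NOD.AireGW/+ mice with neuropathy had been digested. The animals are heterozygous for a partial loss-of-function allele of *Aire*, the regulator of self-antigen display in the thymus, on the autoimmunity-prone NOD background, and per the study's methods they were female. All samples formed 1 group with no control group, so every comparison below is between cells of the same nerves, and none tests an effect of disease. Libraries 1 and 2 held 1 mouse each and library 3 pooled 2 mice, 4 mice in all. The allele is present in every cell of the mice, and ages were not given in the sources used here.

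As background, these factors act in pairs and families. TCF1, the product of *Tcf7*, and LEF1 are related DNA-binding proteins of the Wnt pathway that keep T cells in a self-renewing, memory-like state. BCL6 and BLIMP1, the product of *Prdm1*, repress each other's genes: BCL6 directs T follicular helper (Tfh) cells, whereas BLIMP1 promotes terminal effector cells. c-MAF drives IL-10 and IL-21 production in several helper lineages. TOX and TOX2 are HMG-box proteins, TOX being known for the exhausted state of chronically stimulated CD8+ T cells and TOX2 for Tfh cells. T-bet, the product of *Tbx21*, and EOMES are T-box factors that turn on *Ifng* and cytotoxic genes in helper, CD8+ and natural killer (NK) cells. ID2 binds E proteins and keeps them off DNA, which favours effector and innate lymphocytes.

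RefSeq promoter windows for the GRCm38.p6 build were held for 8 of the 10 genes, not for *Tox* and *Maf*. The 250 bases before the start of 4 genes are shown. These genes form 2 sets known as opposed or paired, the antagonists *Bcl6* and *Prdm1* and the T-box pair *Tbx21* and *Eomes*. Each sequence is on the coding strand of its gene, 5′ to 3′, and capitals mark a match of the BCL6/STAT letters TTCNNNGAA in *Bcl6* and of the E-box letters CANNTG in *Prdm1* and *Tbx21*, searched on both strands. The *Bcl6* window is chr16:23988853-23989102, minus strand, that of *Prdm1* is chr10:44458749-44458998, minus strand, that of *Tbx21* is chr11:97115332-97115581, minus strand, and that of *Eomes* is chr9:118477939-118478188, plus strand.
Bcl6: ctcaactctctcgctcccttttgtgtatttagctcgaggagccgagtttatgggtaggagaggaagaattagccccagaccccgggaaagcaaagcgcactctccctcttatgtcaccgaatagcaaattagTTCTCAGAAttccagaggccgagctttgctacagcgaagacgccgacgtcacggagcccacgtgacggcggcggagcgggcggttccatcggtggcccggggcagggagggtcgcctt
Prdm1: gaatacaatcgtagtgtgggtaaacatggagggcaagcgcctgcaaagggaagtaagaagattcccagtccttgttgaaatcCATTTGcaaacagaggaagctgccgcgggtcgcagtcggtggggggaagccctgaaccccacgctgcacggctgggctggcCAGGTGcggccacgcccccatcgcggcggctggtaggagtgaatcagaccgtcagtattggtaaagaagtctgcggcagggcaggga
Tbx21: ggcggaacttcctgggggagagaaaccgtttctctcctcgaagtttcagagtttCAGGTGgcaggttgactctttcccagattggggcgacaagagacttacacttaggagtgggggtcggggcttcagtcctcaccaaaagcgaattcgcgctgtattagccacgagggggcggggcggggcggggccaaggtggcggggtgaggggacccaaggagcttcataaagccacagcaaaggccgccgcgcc
Eomes: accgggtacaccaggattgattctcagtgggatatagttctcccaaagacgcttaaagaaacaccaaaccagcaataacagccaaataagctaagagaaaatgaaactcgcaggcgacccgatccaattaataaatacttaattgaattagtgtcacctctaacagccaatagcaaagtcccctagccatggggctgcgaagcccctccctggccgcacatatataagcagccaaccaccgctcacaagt
The *Bcl6* match lay 118 bases before the start, and 7.14% of all 27025 promoter windows of the same length held these letters. The *Prdm1* matches lay 168 and 87 bases before the start and that of *Tbx21* 196 bases, but 66.1% of all windows held an E-box, so these matches are common. The *Bcl6* window also held 1 E-box, left unmarked, 60 bases before the start. None of the 4 windows held the TCF/LEF letters CTTTGA (14.1% of all windows), the T-box letters GGTGTGA (3.31%) or the BLIMP1 letters GTGAAAG (3.64%), and the *Eomes* window held no match of any of the 5 motifs. A match is only a run of letters. No binding was measured here, and the start of *Prdm1* used by RefSeq lies inside the longer gene model of the GENCODE annotation.

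The libraries held 3926, 8311 and 1533 cell barcodes, of which 3848, 8256 and 1533 were kept, with 22983991, 55120460 and 3399733 unique molecular identifiers (UMIs, each counting 1 captured transcript). Library 3 was the shallowest, with a median of 1726 UMIs in its kept cells against 3956 and 4632.5. The library pairs shared 36, 7 and 14 cell barcodes. Cells were assigned to populations by marker UMIs, none of them a gene under study. T cells needed 2 UMIs of the CD3 genes, conventional CD4+ T cells *Cd4* but neither *Foxp3* nor *Cd8a* or *Cd8b1*, Foxp3+ cells *Foxp3*, CD8+ T cells *Cd8a* or *Cd8b1*, gamma delta T cells *Trdc*, Ly49+ T cells any of 9 *Klra* genes, and NK cells *Ncr1* without CD3. This gave 1527 conventional CD4+, 963 Foxp3+, 1821 CD8+, 468 gamma delta, 619 Ly49+ and 140 NK cells. Library 3 had few of some, with 13 NK cells and 39 gamma delta T cells. A further 1763 T cells had no *Cd4* or *Cd8* UMI and 470 had mixed markers, and neither entered a comparison. The former were 269, 980 and 514 cells in libraries 1 to 3, beside 563, 784 and 180 conventional CD4+ cells. They made up 6.99%, 11.9% and 33.5% of the kept cells.

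A few markers not used for gating are given here, none of them for CD8+ cells. Those of conventional CD4+, Foxp3+ and NK cells matched the labels, whereas those of gamma delta cells were low in library 3. *Cd40lg*, the helper cell ligand, stood at 300.05, 178 and 200.3 counts per 1000000 UMIs of the population (CPM) in conventional CD4+ cells and at 42.5 at most in the other 5 populations. *Il2ra*, the IL-2 receptor chain of regulatory T cells, stood at 228, 247 and 238 CPM in Foxp3+ cells and at 71.8 at most elsewhere. *Klrb1c*, which encodes NK1.1, stood at 193, 126 and 161 CPM in NK cells and at 1.72 at most in CD8+ cells. That check sets NK cells against CD8+ cells only. A cell with a CD3 UMI could not enter the NK gate. Whether NK cells with CD3 UMIs lay in the gamma delta or Ly49+ gates was not tested. In the gamma delta population *Trdv4* stood at 472, 265 and 10.9 CPM and *Il17a* at 547, 399 and 0 CPM, so the 39 cells of library 3 carried little of either. Ly49+ T cells were mixed in lineage, with *Cd8b1* at 410.2, 84.8 and 25.5 CPM. In bulk sums of this kind, fewer cells that express a gene and less RNA per cell cannot be told apart.

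**Figure D1:**
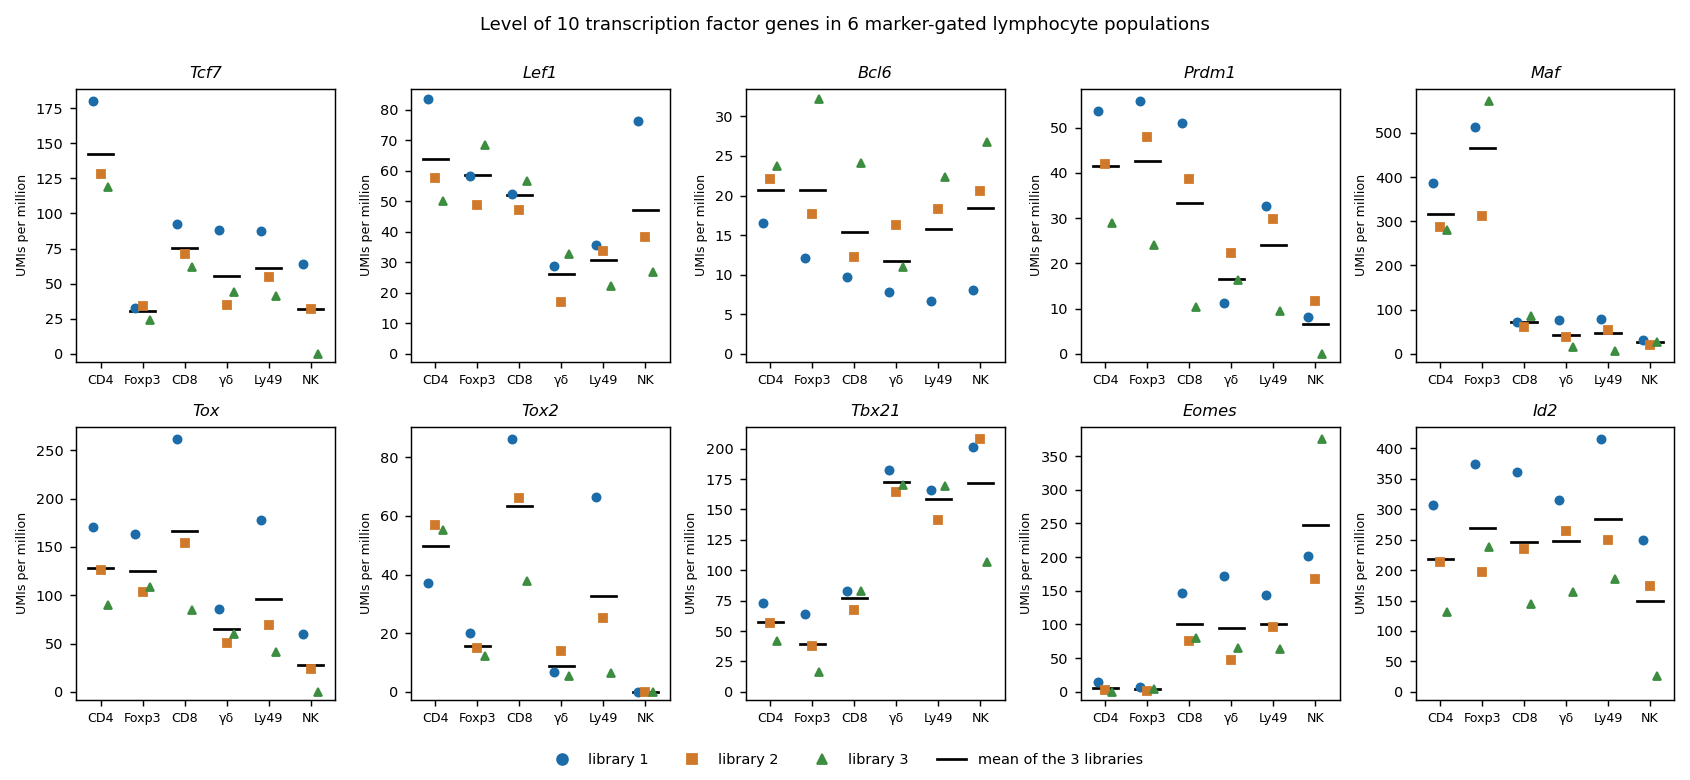
Level of each of the 10 genes, in CPM (linear axis from 0), in conventional CD4+ (CD4), Foxp3+, CD8+, gamma delta (γδ), Ly49+ and NK cells. Points are the 3 libraries and lines their mean; *Maf* was high in CD4 and Foxp3+ cells, *Eomes* was near 0 there, and *Tbx21* was highest in the gamma delta, NK and Ly49+ cells.

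*Tcf7* (ENSMUSG00000000782, chr11:52252371-52283014, minus strand) was highest in conventional CD4+ cells and lowest in Foxp3+ and NK cells. Conventional CD4+ cells held 179.8, 128 and 119 CPM in libraries 1 to 3, CD8+ cells 92.4, 71.1 and 61.9 CPM, and Foxp3+ cells 32.8, 33.9 and 24.2 CPM. Every library of the CD4+ cells thus lay above every library of the others. Gamma delta cells (mean 55.6 ± 28.4 CPM, SD, n = 3 libraries), Ly49+ cells (61.3 ± 23.7 CPM) and NK cells (32.2 ± 32.2 CPM) overlapped with their neighbours in the order of means. On the log2 scale, *Tcf7* was lower in Foxp3+ than in conventional CD4+ cells by −2.22 ± 0.20 (SE; edgeR adjusted p = 2.17e-08), in 3 of 3 libraries and under each of the alternatives tried. It was also lower in CD8+ than in conventional CD4+ cells, with a log2 difference of −0.81 ± 0.16 (edgeR adjusted p = 0.000834) that was lost without the library block (edgeR adjusted p = 0.253).

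Within the CD8+ cells, *Tcf7* had the largest log2 difference of the 10 genes between the subsets. The 348 cells with *Havcr2*, which encodes the checkpoint receptor TIM-3, held 13.9, 5.64 and 0 CPM, that is 17, 5 and 0 UMIs. The 951 cells with *Gzmk*, the granzyme of early effector memory cells, and no *Havcr2* held 111, 83.9 and 57.8 CPM. The 522 cells with neither marker held 218, 111 and 94.4 CPM, so in each library the order was the same, neither marker first and *Havcr2* last. Cells with neither marker were the shallowest in each library, with medians of 2887.5, 2635 and 1805 UMIs. A cell with 0 UMIs of a marker may still express it. *Havcr2* cells were lower than *Gzmk* cells by a log2 difference of −3.38 ± 0.27 (edgeR adjusted p = 2.03e-09), and each alternative kept this call, with log2 differences between −3.96 and −3.14. *Havcr2* cells were the deeper ones in libraries 2 and 3, with medians of 6078 and 3579 UMIs against 3273.5 and 2160 in *Gzmk* cells. After each cell was thinned to 1000 UMIs the log2 difference was −3.47 (edgeR adjusted p = 4.13e-05). The division gene *Mki67* stood at 167, 120 and 12.7 CPM in *Havcr2* cells against 85.9, 52.3 and 16.0 CPM in *Gzmk* cells, and without cells holding a *Mki67* or *Top2a* UMI the log2 difference in *Tcf7* was −3.60 (edgeR adjusted p = 4.57e-07).

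The conventional CD4+ cells showed the same kind of order when they were split by chemokine receptor. Cells with *Cxcr5*, the receptor of Tfh cells, held 352, 250.1 and 383 CPM of *Tcf7*, although they were only 17, 24 and 5 cells. Cells with *Cxcr6*, a receptor of tissue-homing T cells, held 88.0, 40.9 and 0 CPM, and cells with neither receptor 244, 151 and 123.1 CPM. The 3 subsets did not overlap across libraries. Their median depths were 4392, 5100.5 and 1527 UMIs (*Cxcr5*), 3083.5, 2575.5 and 1789 (*Cxcr6*) and 2600, 2472 and 1780 (neither receptor). *Tcf7* was lower in *Cxcr6* cells than in cells with neither receptor by a log2 difference of −1.67 ± 0.20 (edgeR adjusted p = 9.65e-07, 3 of 3 libraries), a call that was lost when the library was not a block (edgeR adjusted p = 0.329). Against *Cxcr5* cells the log2 difference was −2.26 ± 0.29 in the 2 libraries with enough cells (edgeR adjusted p = 3.34e-06). The alternatives also called it, but leaving out library 1 or 2, or asking for more cells in a sum, left 1 *Cxcr5* sum, whose spread was then assumed to be like that of the other sums. CD4+ cells with an *Il21* UMI held less *Tcf7* than those without, 103 and 79.8 against 197 and 141 CPM in libraries 1 and 2, a log2 difference of −0.85 ± 0.18 (edgeR adjusted p = 0.000199) that was lost with DESeq2, without the block and after thinning. Library 3 had 8 *Il21* cells and was left out of that contrast, which therefore rests on 2 libraries.

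*Lef1* (ENSMUSG00000027985, chr3:131110471-131224356, plus strand) varied less than *Tcf7* and did not follow it in Foxp3+ cells. It stood at 83.5, 57.7 and 50.1 CPM in conventional CD4+ cells, 58.2, 48.8 and 68.4 CPM in Foxp3+ cells and 52.5, 47.2 and 56.8 CPM in CD8+ cells. These 3 populations overlapped, and neither difference from CD4+ cells was called (log2 −0.32 ± 0.18 for Foxp3+, edgeR adjusted p = 0.369). Gamma delta cells held 28.9, 16.9 and 32.8 CPM, below CD8+ cells by a log2 difference of −1.13 ± 0.23 (edgeR adjusted p = 0.000936). That call was lost without library 2 (log2 −0.83, edgeR adjusted p = 0.164) and after thinning (log2 −0.64, edgeR adjusted p = 0.449). Gamma delta cells were the deeper ones, with median UMI counts of 6068.5, 4183 and 3942 against 3994, 3217 and 2096 in CD8+ cells. In the CD8+ subsets *Lef1* moved in the direction of *Tcf7*, with 31.0, 26.0 and 0 CPM in *Havcr2* cells and 54.4, 45.7 and 44.9 CPM in *Gzmk* cells. The log2 difference of −0.93 ± 0.26 (edgeR adjusted p = 0.0324) was lost under 6 of 13 alternatives, among them without library 1 (edgeR adjusted p = 0.161) and without library 2 (edgeR adjusted p = 0.115). *Il21* cells also held less *Lef1*, 43.1 and 35.5 against 92.7 and 63.6 CPM in libraries 1 and 2, a log2 difference of −0.94 ± 0.30 (edgeR adjusted p = 0.0345) that was lost under 5 of 10 alternatives.

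*Bcl6* (ENSMUSG00000022508, chr16:23965052-23988852, minus strand), the Tfh factor, was rare in every population, and neither edgeR nor DESeq2 called any of its 9 differences, 2 of which had an unadjusted edgeR p under 0.05. Conventional CD4+ cells held 16.5, 22.1 and 23.7 CPM, from 31, 60 and 9 UMIs, and the means of the 6 populations ran only from 11.7 to 20.8 CPM. The populations overlapped at each step of that order. In *Cxcr5* CD4+ cells the values were 0, 27.8 and 153 CPM, from 0, 4 and 2 UMIs, against 9.51, 13.2 and 24.0 CPM in *Cxcr6* cells. The difference between *Cxcr6* and *Cxcr5* cells was not called (log2 −0.55 ± 0.92, edgeR adjusted p = 0.885). The difference between *Cxcr6* cells and cells with neither receptor, −1.003 ± 0.43 on the log2 scale, also missed the threshold (edgeR adjusted p = 0.389).

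*Prdm1* (ENSMUSG00000038151, chr10:44437177-44528501, minus strand), the antagonist of *Bcl6*, was higher in *Cxcr6* CD4+ cells than in other CD4+ cells, and lower in NK and gamma delta cells than in CD8+ cells. Conventional CD4+ cells as a whole held 53.7, 41.9 and 29.0 CPM, Foxp3+ cells 55.8, 47.9 and 24.2 CPM and CD8+ cells 51.0, 38.6 and 10.3 CPM. Library 3 was the lowest in each of these populations. *Cxcr6* cells held 77.3, 81.8 and 48.1 CPM against 37.5, 28.6 and 27.7 CPM in cells with neither receptor, and the groups did not overlap. The log2 difference was 1.25 ± 0.26 (edgeR adjusted p = 0.00414), and it was lost without library 2 (log2 0.97, edgeR adjusted p = 0.572), without the block and after thinning. Against *Cxcr5* cells, which held 0 and 20.8 CPM from 0 and 3 UMIs in libraries 1 and 2, the log2 difference was 2.53 ± 0.68 (edgeR adjusted p = 0.0330). It was lost under 8 of 13 alternatives, among them without library 1 (edgeR adjusted p = 0.304) and without library 2 (edgeR adjusted p = 0.207).

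Plasma cells also express *Prdm1*, and the *Cxcr6* cells of library 2 held 684 UMIs of the plasma cell genes *Jchain* and *Mzb1*. One cell held 665 of them. Without cells holding at least 2 such UMIs, which left out 7, 3 and 0 *Cxcr6* cells, *Prdm1* stood at 73.6, 84.2 and 48.1 CPM in *Cxcr6* cells. The log2 difference from cells with neither receptor was then 1.22 (edgeR adjusted p = 0.00382). In CD8+ cells *Prdm1* stood at 79.2, 47.4 and 0 CPM with *Havcr2* and 37.6, 43.0 and 12.8 CPM with *Gzmk*, a difference that was not called (log2 0.55 ± 0.25, edgeR adjusted p = 0.276). NK cells held 8.04, 11.7 and 0 CPM, from 2, 4 and 0 UMIs, a log2 difference of −2.09 ± 0.49 from CD8+ cells (edgeR adjusted p = 0.00412) that was lost without library 1 (edgeR adjusted p = 0.108), without the block and after thinning. Gamma delta cells held 11.1, 22.3 and 16.4 CPM, a log2 difference of −1.14 ± 0.25 from CD8+ cells (edgeR adjusted p = 0.00200), but library 3 went the other way and the call was lost without library 1 (log2 −0.66, edgeR adjusted p = 0.333), without the block and after thinning.

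*Maf* (ENSMUSG00000055435, chr8:115682942-115707794, minus strand) marked the CD4 lineage. Conventional CD4+ cells held 387, 286 and 279 CPM and Foxp3+ cells 513, 313 and 572 CPM, whereas CD8+ cells held 71.5, 61.1 and 86.0 CPM. The other populations had means of 46.7 ± 37.2 CPM (Ly49+), 43.4 ± 30.0 CPM (gamma delta) and 26.5 ± 5.82 CPM (NK), and none of their libraries reached a library of the CD4+ or Foxp3+ cells. CD8+ cells lay below conventional CD4+ cells by a log2 difference of −2.10 ± 0.22 (edgeR adjusted p = 5.27e-08), under each alternative. Foxp3+ cells were above conventional CD4+ cells in 3 of 3 libraries, but the log2 difference of 0.40 ± 0.20 was not called (edgeR adjusted p = 0.285). Within the CD4+ cells *Maf* ran against *Tcf7*: *Cxcr6* cells held 517, 419 and 625 CPM, cells with neither receptor 294, 247 and 240.1 CPM, and *Cxcr5* cells 196, 153 and 153 CPM. *Cxcr6* cells were higher than cells with neither receptor by 0.84 ± 0.16 (log2; edgeR adjusted p = 0.00147) and higher than *Cxcr5* cells by 1.49 ± 0.26 (log2; edgeR adjusted p = 0.000406). The former was lost only without the library block (edgeR adjusted p = 0.734), and the latter without the block and without library 2 (edgeR adjusted p = 0.0715). *Il21* cells held 480 and 356 CPM against 366 and 268 CPM in *Il21*-negative cells, a log2 difference of 0.42 ± 0.12 (edgeR adjusted p = 0.0160) that was lost under 6 of 12 alternatives, DESeq2 among them.

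**Figure D2:**
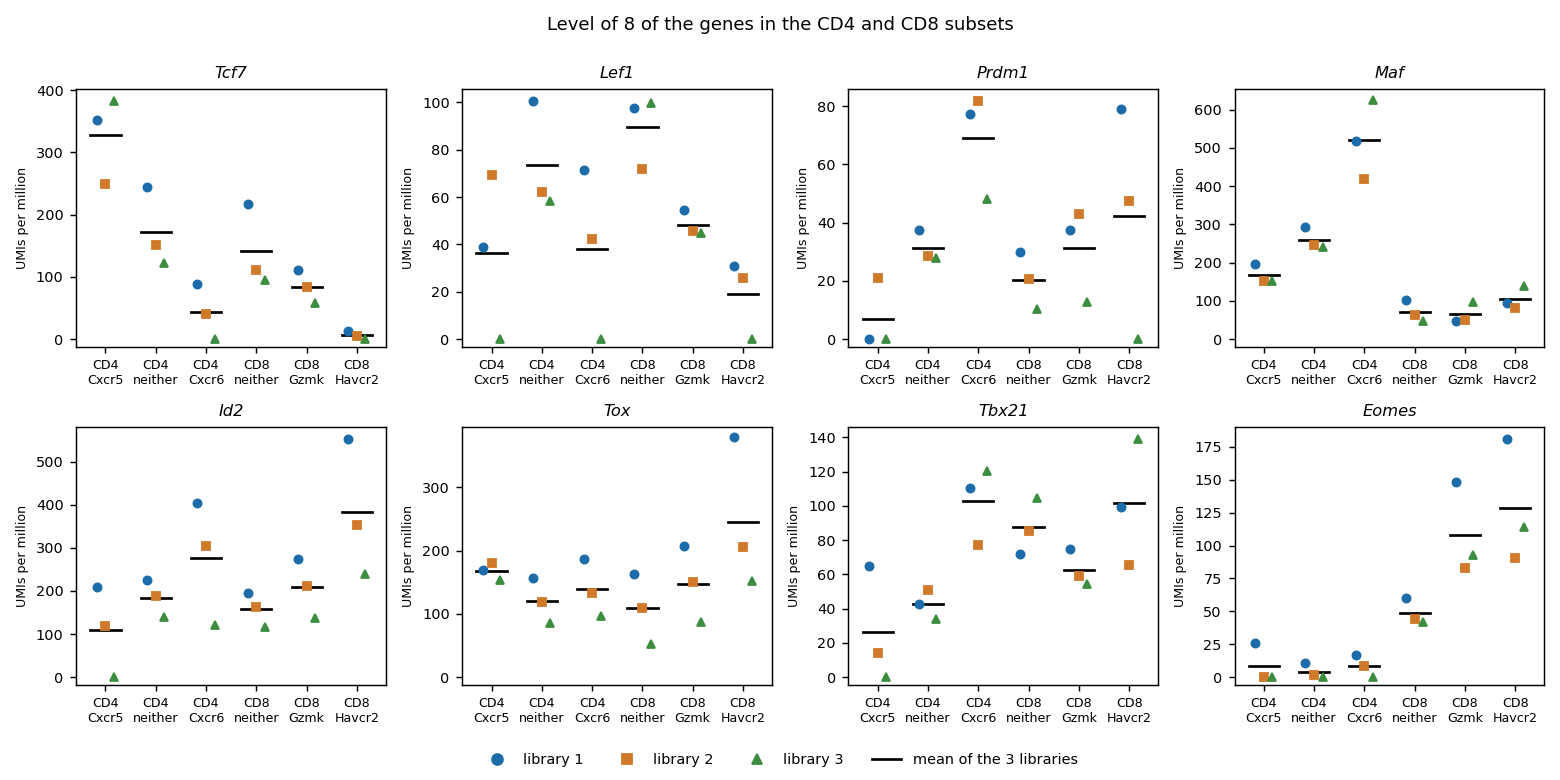
Level of 8 of the genes, in CPM (linear axis), in CD4+ cells split by *Cxcr5* and *Cxcr6* and in CD8+ cells split by *Gzmk* and *Havcr2*. Points are the 3 libraries and lines their mean; the mean of *Tcf7* was 328 CPM in *Cxcr5* and 43.0 CPM in *Cxcr6* CD4+ cells, and 141 CPM in CD8+ cells with neither marker and 6.51 CPM in *Havcr2* cells.

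*Tox* (ENSMUSG00000041272, chr4:6686353-6991557, minus strand) was highest on average in CD8+ cells, at 261, 154 and 84.3 CPM. Library 1 was the highest in each of the 6 populations. Conventional CD4+ cells held 170.2, 126 and 89.6 CPM and Foxp3+ cells 163, 103 and 109 CPM. CD8+ and conventional CD4+ cells overlapped, and the log2 difference of 0.47 ± 0.16 was not called (edgeR adjusted p = 0.0607), although it was without library 3 (log2 0.54, edgeR adjusted p = 0.0256). Innate-type populations held less. NK cells held 60.3, 23.5 and 0 CPM, below CD8+ cells by a log2 difference of −2.35 ± 0.31 (edgeR adjusted p = 4.16e-06). Gamma delta cells held 85.7, 50.6 and 60.2 CPM, a log2 difference of −1.46 ± 0.19 from CD8+ cells (edgeR adjusted p = 4.14e-06) that was lost without the library block (edgeR adjusted p = 0.0919). Ly49+ cells held 178, 69.4 and 41.4 CPM, a log2 difference of −0.77 ± 0.17 (edgeR adjusted p = 0.00556) that was lost without library 2 (edgeR adjusted p = 0.252), without the block and after thinning.

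Within the CD8+ cells *Tox* was ordered opposite to *Tcf7*. *Havcr2* cells held 379, 207 and 152 CPM, *Gzmk* cells 208, 149.7 and 86.7 CPM, and cells with neither marker 164, 109.6 and 52.4 CPM, an order that held within each library. *Havcr2* cells were higher than *Gzmk* cells by 0.63 ± 0.14 (log2; edgeR adjusted p = 0.00594), a call that was lost without library 1 (log2 0.46, edgeR adjusted p = 0.418), without the block and after thinning (log2 0.61). The exhaustion-associated receptors *Pdcd1* and *Lag3* stood at 1099, 588 and 898 CPM and at 1040.4, 510.2 and 481 CPM in *Havcr2* cells, each above *Gzmk* cells of the same library. In CD4+ cells no difference in *Tox* was called, with 187, 133 and 96.2 CPM in *Cxcr6* and 169.5, 181 and 153 CPM in *Cxcr5* cells.

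*Tox2* (ENSMUSG00000074607, chr2:163203125-163324170, plus strand) was highest on average in CD8+ and conventional CD4+ cells, and no UMI of it was found in NK cells. CD8+ cells held 86.1, 66.1 and 37.8 CPM and conventional CD4+ cells 37.2, 57.0 and 55.3 CPM, and these overlapped. Foxp3+ cells held 20.0, 14.9 and 12.1 CPM, below conventional CD4+ cells in each library, with a log2 difference of −1.63 ± 0.34 (edgeR adjusted p = 0.00272). This call was lost without library 2 (log2 −1.3, edgeR adjusted p = 0.110), without the block and after thinning. The NK cells held 0 *Tox2* UMIs among 626864, so that at the floor of 3 UMIs over the 3 libraries, 4.79 CPM, they were at least 15.3-fold lower than CD8+ cells, which held 73.1 CPM over all libraries (edgeR adjusted p = 0.000175). Gamma delta cells held 6.68, 13.9 and 5.47 CPM, a log2 difference of −2.67 ± 0.38 from CD8+ cells (edgeR adjusted p = 1.73e-05) that each alternative kept. In *Cxcr5* CD4+ cells *Tox2* stood at 39.1, 83.4 and 76.6 CPM, from 3, 12 and 1 UMIs, and the difference from *Cxcr6* cells was not called (log2 −0.48 ± 0.49 for *Cxcr6* minus *Cxcr5*, edgeR adjusted p = 0.782).

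*Tbx21* (ENSMUSG00000001444, chr11:97098071-97115331, minus strand) split the populations into 2 levels. Gamma delta cells held 183, 165 and 169.7 CPM, Ly49+ cells 166, 142 and 169 CPM and NK cells 201, 208 and 107 CPM. CD8+ cells held 83.0, 67.0 and 82.6 CPM, below each of those 9 values, conventional CD4+ cells 73.4, 56.3 and 42.2 CPM and Foxp3+ cells 63.7, 37.7 and 16.1 CPM. Relative to CD8+ cells *Tbx21* was higher in NK cells by 1.34 ± 0.22 (log2; edgeR adjusted p = 8.39e-05), in gamma delta cells by 1.21 ± 0.17 (log2; edgeR adjusted p = 1.29e-05) and in Ly49+ cells by 1.03 ± 0.17 (log2; edgeR adjusted p = 0.000179). The first 2 calls held under each alternative, and the Ly49+ call was lost only without the library block (edgeR adjusted p = 0.112). CD8+ and conventional CD4+ cells differed by 0.43 ± 0.18 (log2), which was not called (edgeR adjusted p = 0.139). *Cxcr6* CD4+ cells held 111, 77.4 and 120.2 CPM against 42.9, 50.9 and 33.9 CPM in cells with neither receptor, a log2 difference of 0.99 ± 0.25 (edgeR adjusted p = 0.0200) that was lost without library 1 (log2 0.74, edgeR adjusted p = 0.666), without the block and after thinning.

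*Eomes* (ENSMUSG00000032446, chr9:118478212-118486132, plus strand) was close to absent from CD4+ cells, whether conventional or Foxp3+. Conventional CD4+ cells held 14.4, 3.31 and 0 CPM, from 27, 9 and 0 UMIs, and Foxp3+ cells 7.28, 0.930 and 4.03 CPM. CD8+ cells held 147, 75.6 and 79.1 CPM, a log2 difference of 3.96 ± 0.32 from conventional CD4+ cells (edgeR adjusted p = 3.91e-10), with log2 differences between 3.24 and 4.76 over the alternatives. Gamma delta cells (173, 47.6 and 65.7 CPM) and Ly49+ cells (143, 96.4 and 63.8 CPM) overlapped with CD8+ cells, and neither difference from them was called. NK cells held 201, 167 and 375 CPM, above every library of the CD8+ cells though not above library 1 of the gamma delta cells, with a log2 difference from CD8+ cells of 0.93 ± 0.27 (edgeR adjusted p = 0.0230). The NK call rested on few UMIs, 50, 57 and 14, and was lost under 7 of 14 alternatives, among them without library 2 (log2 0.80, edgeR adjusted p = 0.158) and without library 3 (log2 0.79, edgeR adjusted p = 0.117). Across the CD8+ subsets the cells with neither marker held 59.9, 44.5 and 42.0 CPM, below the *Gzmk* (148, 83.3 and 93.1 CPM) and *Havcr2* cells (181, 90.3 and 114 CPM). The difference between the latter 2 was not called (log2 0.17 ± 0.16, edgeR adjusted p = 0.727).

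**Figure D3:**
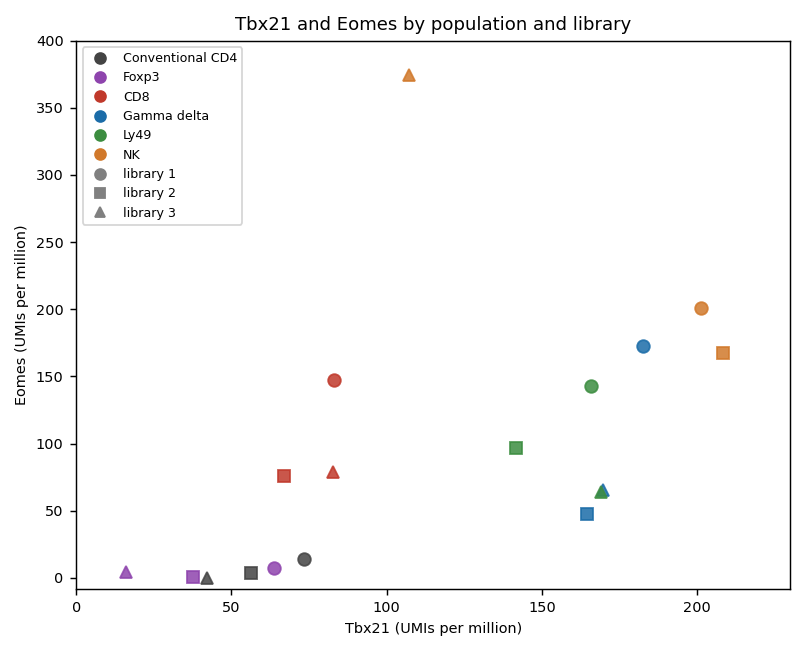
Level of *Tbx21* (horizontal axis) against *Eomes* (vertical axis), both in CPM on linear axes, for 6 populations (colours) in 3 libraries (shapes). The conventional CD4+ and Foxp3+ points lie at 14.4 CPM of *Eomes* or less, CD8+ cells hold *Eomes* at 67.0 to 83.0 CPM of *Tbx21*, and the gamma delta and Ly49+ points lie at 142 to 183 CPM of *Tbx21*.

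The T-box genes thus separated the populations along different lines, as the plot of *Tbx21* against *Eomes* shows. *Eomes* divided CD4+ and Foxp3+ cells from all others, whereas *Tbx21* divided CD8+ cells from gamma delta, Ly49+ and NK cells. Whether NK cells with CD3 UMIs added to the gamma delta and Ly49+ levels was not tested, so these gates may not be separate lineages. Over the 24 sums of 8 populations in 3 libraries, with CD8+ cells entered as 3 subsets, the log2 levels of *Tbx21* and *Eomes* had a Pearson r of 0.687 after centring within library. The same measure was −0.801 for *Tbx21* and *Maf* and −0.776 for *Eomes* and *Maf*. These correlations describe points that share libraries and depth, and no test was made of them.

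*Id2* (ENSMUSG00000020644, chr12:25093799-25097140, minus strand) was present in every population, with means between 149.7 CPM in NK and 283 CPM in Ly49+ cells that overlapped at each step of the order. Conventional CD4+ cells held 307, 214 and 132 CPM, CD8+ cells 361, 235 and 145 CPM and Ly49+ cells 416, 249.6 and 185 CPM. Library 1 was the highest in each of the 6 populations and library 3 the lowest in all but Foxp3+ cells. edgeR called none of the 5 differences tested between these populations, 1 of which, NK against CD8+ cells, had an unadjusted p under 0.05. Within the CD8+ cells *Id2* was higher with *Havcr2*. These cells held 553, 353 and 240.4 CPM, *Gzmk* cells 275, 212 and 138 CPM and cells with neither marker 196, 163 and 115 CPM. The log2 difference of *Havcr2* from *Gzmk* cells was 0.81 ± 0.13 (edgeR adjusted p = 0.000224), lost without the block and after thinning. In CD4+ cells *Id2* was higher in *Cxcr6* cells (403, 304 and 120.2 CPM) than in cells with neither receptor (226, 189 and 139 CPM) by 0.66 ± 0.17 (log2; edgeR adjusted p = 0.0278). Library 3 went the other way there, and the call was lost under 4 of 13 alternatives, among them without library 1 (edgeR adjusted p = 0.967) and without library 2 (edgeR adjusted p = 0.524). Against *Cxcr5* cells, which held 209 and 118 CPM in libraries 1 and 2, the log2 difference was 1.16 ± 0.28 (edgeR adjusted p = 0.0170), lost with DESeq2, without the block, without library 1 (edgeR adjusted p = 0.0800) and without library 2 (edgeR adjusted p = 0.709).

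**Figure D4:**
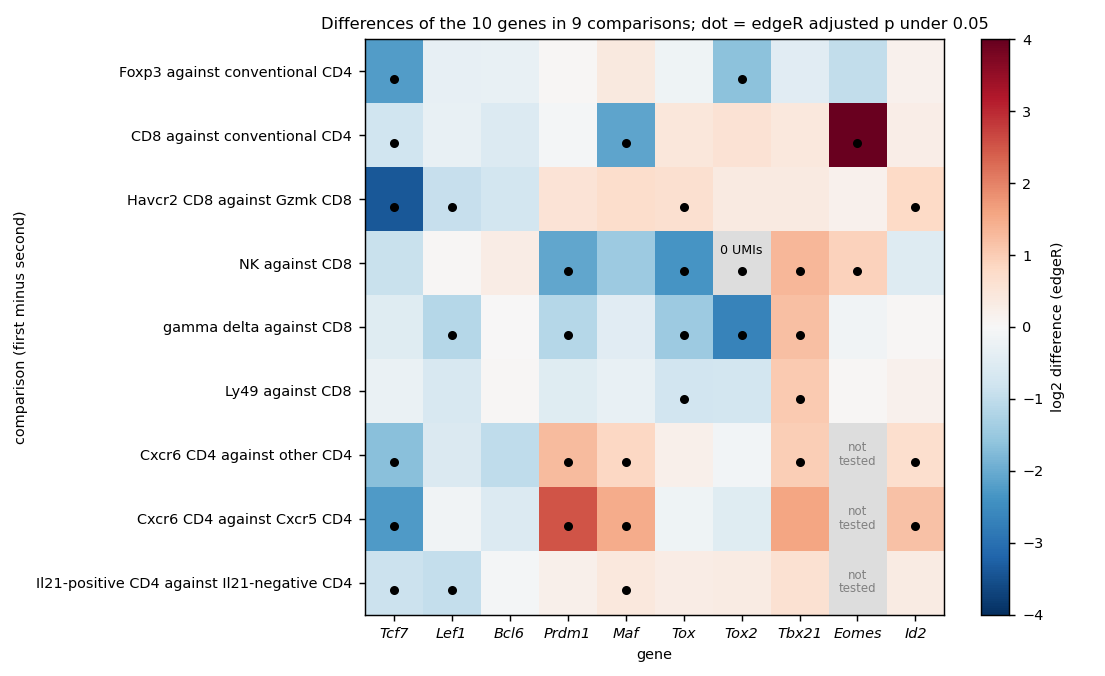
Log2 differences (edgeR) of the 10 genes (columns) in the 9 comparisons (rows), blue lower and red higher in the first-named population, on a scale cut at 4; dots mark an adjusted p under 0.05. Grey squares were not tested or had 0 UMIs in the first population; of the 87 differences tested 33 were called, and *Tcf7* was lower in the first population in each of the 6 comparisons where it was called.

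Set against all genes tested, the calls were spread unevenly over the 9 comparisons. Of the 10 genes, 0 were higher and 2 were lower in Foxp3+ than in conventional CD4+ cells, where 3.94% and 3.23% of 8781 genes were called higher and lower by edgeR. At an unadjusted p under 0.05 the number higher was also 0, with edgeR and with DESeq2. The median log2 difference of the 10 was −0.31, against −0.00 over all genes. In CD8+ against conventional CD4+ cells 1 was higher and 2 were lower, against 5.74% and 6.74% of all genes. In *Havcr2* against *Gzmk* CD8+ cells 2 were higher and 2 were lower, against 1.97% and 2.86% of 7761 genes, and the median was 0.37. In NK against CD8+ cells 2 were higher and 3 were lower, against 5.16% and 6.18%, and in gamma delta against CD8+ cells 1 was higher and 4 were lower, against 5.88% and 4.89%. In Ly49+ against CD8+ cells 1 was higher and 1 was lower, against 3.52% and 1.31%.

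Of the 9 genes tested in the CD4+ subsets, *Eomes* being too low, 4 were higher and 1 was lower in *Cxcr6* cells than in cells with neither receptor, where 1.24% and 0.762% of 7083 genes were called. In *Cxcr6* against *Cxcr5* cells 3 were higher and 1 was lower, against 1.82% and 0.904%. In *Il21*-positive against *Il21*-negative cells 1 was higher and 2 were lower, against 2.67% and 2.27% of 6555 genes. The shares of the 10 genes called were above the background in each of the subset comparisons, but the genes were picked for their known role in these cells and the comparisons with conventional CD4+ or CD8+ cells share those cells. Without TMM scaling the calls over all genes shifted from 504 higher and 592 lower to 377 higher and 834 lower in CD8+ against conventional CD4+ cells, and from 153 and 222 to 196 and 180 in *Havcr2* against *Gzmk* cells.

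Other transcription factors were read from a list of 32 genes. In Foxp3+ cells 3 of 31 tested were higher and 5 lower than in conventional CD4+ cells, among them *Ikzf2*, which encodes the regulatory T cell factor Helios (log2 1.71 ± 0.18, edgeR adjusted p = 3.05e-07), and *Bach2*, a factor of resting lymphocytes (log2 −1.58 ± 0.27, edgeR adjusted p = 0.000268). CD8+ cells had 4 higher and 11 lower, with *Runx3*, the CD8 lineage factor, at log2 0.99 ± 0.16 (edgeR adjusted p = 6.52e-05) and *Zbtb7b*, which encodes the CD4 lineage factor ThPOK, at log2 −2.35 ± 0.38 (edgeR adjusted p = 5.41e-05). In NK cells 7 were higher and 5 lower than in CD8+ cells, in gamma delta cells 5 and 4, and in Ly49+ cells 5 and 1. *Irf8*, an interferon-regulated factor of myeloid and NK cells, was higher in all 3, with means of 1076 ± 194 CPM in NK, 410 ± 217 CPM in gamma delta and 299.8 ± 13.6 CPM in Ly49+ cells against 26.8 ± 17.2 CPM in CD8+ cells. *Zbtb16*, which encodes the innate T cell factor PLZF, was also higher in all 3, though its mean was 16.5 CPM at most.

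In the subset comparisons *Klf2*, which maintains the exit receptor *S1pr1*, was lower in the first-named subset of all 4 comparisons. It was the 1 gene called lower of 27 tested in *Havcr2* against *Gzmk* cells (4 were higher), at 83.7 ± 53.3 against 287 ± 127 CPM (log2 −1.74 ± 0.16, edgeR adjusted p = 1.64e-08). It was also the 1 gene called lower of 29 tested in *Cxcr6* cells against cells with neither receptor (1 was higher), at log2 −1.62 ± 0.19 (edgeR adjusted p = 6.54e-07), and the 1 lower against *Cxcr5* cells (3 were higher), at log2 −1.06 ± 0.24 (edgeR adjusted p = 0.0108). In *Il21*-positive cells 4 of 26 were higher and 6 lower. *Klf2* stood at 115 ± 7.56 CPM in them and at 611 ± 266 CPM in *Il21*-negative cells, and *Bhlhe40*, a regulator of helper cell cytokines, was higher by 0.92 ± 0.10 (log2; edgeR adjusted p = 3.40e-18). The *Il21* comparison rests on libraries 1 and 2 with 1 residual degree of freedom. Its p-values therefore rest almost wholly on the spread of other genes. *Il21*-positive cells were also deeper, with medians of 3732 and 3508 UMIs against 2753 and 2400.

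A second list held 22 surface, cytokine and cytotoxic genes known as targets or companions of the 10 factors, and genes that defined a gate were left out. No link between a factor and a listed gene was tested. In CD8+ against conventional CD4+ cells 10 of 22 were higher and 8 lower. The cytotoxic genes *Gzma* and *Prf1*, known T-box targets, were higher, as was *Eomes*, at log2 4.98 ± 0.71 (edgeR adjusted p = 8.26e-06) and 4.15 ± 0.29 (edgeR adjusted p = 3.15e-11). *Il21* and *Il10*, known c-MAF targets, were lower, as was *Maf*, at log2 −3.89 ± 0.27 (edgeR adjusted p = 9.66e-11) and −3.60 ± 0.25 (edgeR adjusted p = 2.44e-11). In Foxp3+ cells 4 were higher and 9 lower, and *Il21* was lower there too, at log2 −4.30 ± 0.32 (edgeR adjusted p = 1.55e-09). *Maf* was not called in that comparison. In NK cells 4 were higher and 12 lower than in CD8+ cells, in gamma delta cells 3 and 14, and in Ly49+ cells 3 and 4. *Klrg1*, a receptor of terminal effector and NK cells, was higher in all 3, by 2.98 ± 0.35, 2.64 ± 0.26 and 2.39 ± 0.25 on the log2 scale.

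Among the subsets, *Havcr2* CD8+ cells had 7 of 17 genes higher and 4 lower than *Gzmk* cells. The memory-cell gene *Il7r*, the IL-7 receptor, was lower, as was *Tcf7*, at log2 −2.63 ± 0.19 (edgeR adjusted p = 2.40e-10). *Prf1* was higher, at log2 1.59 ± 0.16 (edgeR adjusted p = 8.05e-08), and neither *Eomes* nor *Tbx21* was called there. *Cxcr6* CD4+ cells had 5 of 16 genes higher and 6 lower than cells with neither receptor, with *Ccr7*, the lymph node homing receptor, at 187 ± 65.5 against 832 ± 334 CPM and *Gzmb*, which encodes granzyme B, at 113 ± 38.5 against 45.3 ± 19.3 CPM. Against *Cxcr5* cells 7 were higher and 2 lower, and *Gzmb* was at 133.5 ± 21.4 CPM in *Cxcr6* cells with 0 UMIs in *Cxcr5* cells of both libraries. *Slamf6*, a receptor of stem-like and Tfh cells, was lower in *Cxcr6* than in *Cxcr5* cells, at log2 −1.48 ± 0.25 (edgeR adjusted p = 0.000250). In *Il21*-positive cells 4 of 15 were higher and 2 lower, with *Ifng* at 700.0 ± 188 against 201.5 ± 64.2 CPM over 2 libraries.

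**Figure D5:**
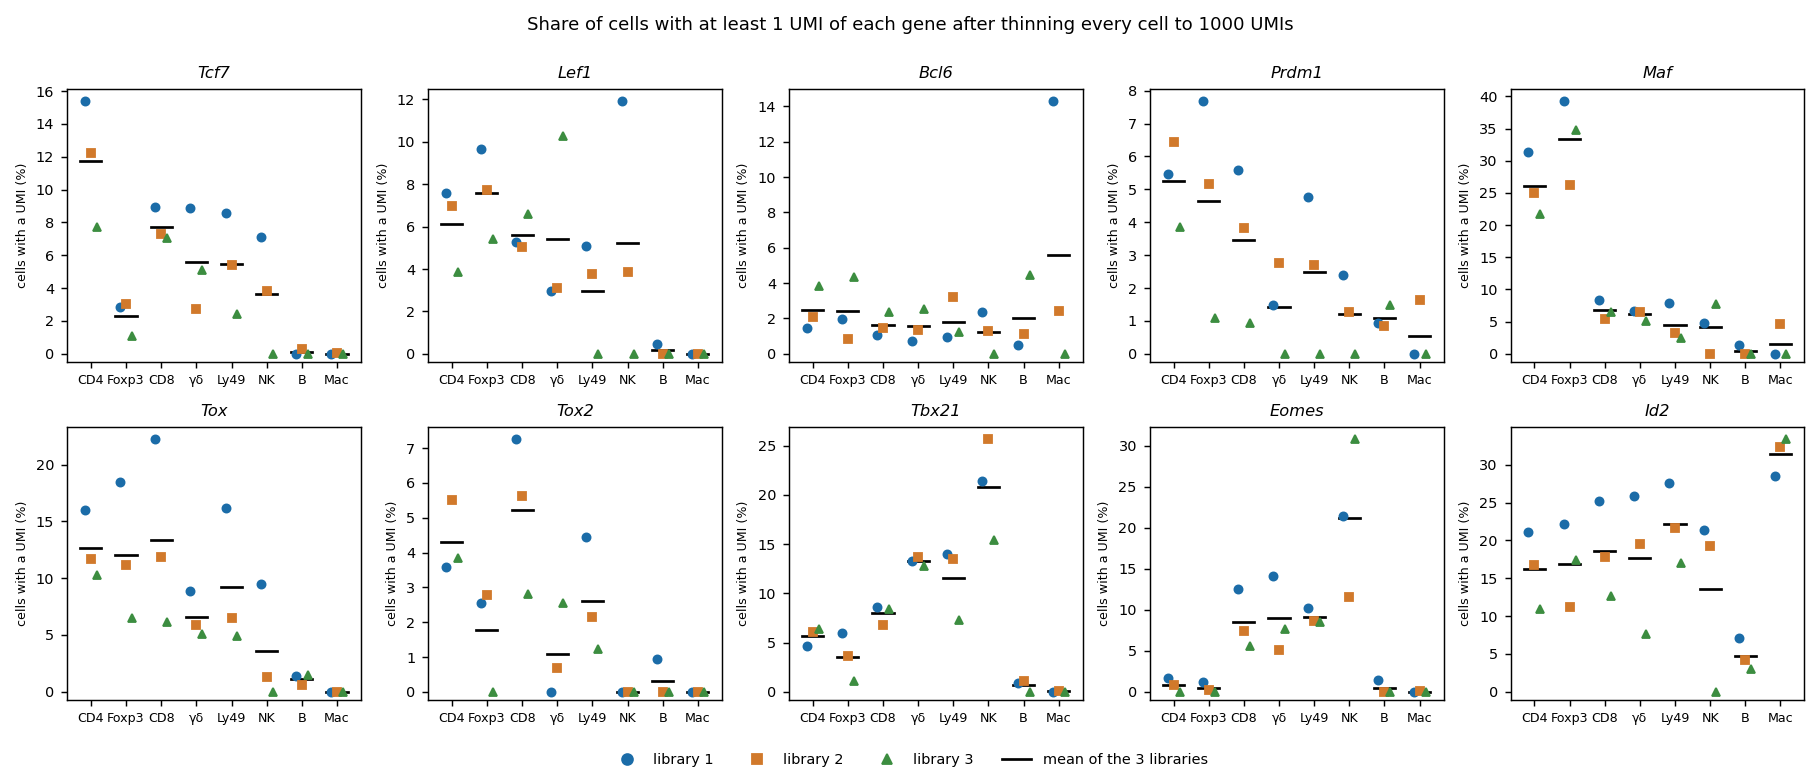
Percentage of cells with at least 1 UMI of each gene (linear axis) after each cell was thinned to 1000 UMIs, in the 6 populations and in B cells (B) and macrophages (Mac). Points are the 3 libraries, of which libraries 1 and 3 held 7 and 3 macrophages at this depth, and lines are the means; *Tcf7*, *Tox* and *Eomes* lay at 1.49% or less in B cells and macrophages.

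Shares of cells with a UMI were taken after each cell was thinned to 1000 UMIs, which left out 134 of 1527 conventional CD4+ and 110 of 1821 CD8+ cells. *Tcf7* was found in 15.4%, 12.2% and 7.69% of conventional CD4+ cells and in 2.84%, 3.004% and 1.09% of Foxp3+ cells. Macrophages of library 2, which should lack it, had it in 0.0550% of cells, and B cells in 0%, 0.278% and 0%. Median depths before thinning were 2923, 2503 and 1757.5 UMIs in conventional CD4+ cells, 7414 in the macrophages of library 2 and 3991.5, 3124 and 1752 in B cells. In *Havcr2* CD8+ cells *Tcf7* was found in 3 of 200, 0 of 113 and 0 of 15 thinned cells, the second of which allows a share of up to 2.65% of cells with a UMI at that depth and sets no limit on cells that express the gene. Unthinned, the shares were 5.91%, 2.65% and 0%. Without thinning *Tcf7* was found in 30.0%, 25.8% and 18.9% of conventional CD4+ cells.

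*Maf* was found in 31.4%, 24.9% and 21.8% of thinned conventional CD4+ cells and in 8.31%, 5.38% and 6.57% of CD8+ cells, against 1.42%, 0% and 0% of B cells. The macrophages of library 2 had it in 4.56% of cells. *Eomes* was found in 1.68%, 0.787% and 0% of conventional CD4+ cells, close to the 1.42%, 0% and 0% of B cells and so not told apart from background, and in 12.5%, 7.42% and 5.63% of CD8+ cells. *Tbx21* was found in 21.4%, 25.6% and 15.4% of NK cells, 13.3%, 13.7% and 12.8% of gamma delta cells and 8.61%, 6.82% and 8.45% of CD8+ cells, against 0.943%, 1.11% and 0% of B cells. *Bcl6* was found in 1.47%, 2.10% and 3.85% of conventional CD4+ cells, and in 0.472%, 1.11% and 4.48% of B cells. B cells and macrophages can express *Bcl6* themselves, so they set no background for it. *Id2* was found in 32.3% of the macrophages of library 2, more than in the T cells of that library, where the 6 populations lay between 11.2% and 21.6%.

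Detection of 2 factors in 1 cell was sparse after thinning. In conventional CD4+ cells at full depth, *Prdm1* was found in 5.92%, 4.46% and 0% of the cells with a *Tcf7* UMI and in 17.0%, 14.4% and 6.85% of the cells without, lower with *Tcf7* in 3 of 3 libraries. After thinning these shares were 2.74%, 0% and 0% against 5.97%, 7.32% and 4.17%, and only 2, 0 and 0 cells held both. *Bcl6* and *Prdm1* were found together in 2, 4 and 0 cells at full depth and in 0, 1 and 0 thinned cells, too few for a direction. *Tbx21* and *Eomes* were found together in 91, 37 and 6 CD8+ cells at full depth and in 8, 1 and 0 thinned cells. The product of the single-gene shares would give 60.3, 38.4 and 4.74 cells at full depth and 7.15, 4.23 and 1.01 thinned cells. At full depth *Tcf7* and *Lef1* were found together in 55, 52 and 6 conventional CD4+ cells (product 34.2, 31.9 and 3.21). *Maf* and *Prdm1* were found in 53, 54 and 5 (product 38.6, 44.6 and 3.61), and *Tcf7* and *Tox* in 63, 40 and 2 CD8+ cells (product 91.9, 59.1 and 3.75). After thinning the counts were 10, 12 and 1 (product 5.53, 6.47 and 0.462), 14, 15 and 1 (8.16, 12.2 and 1.31) and 5, 6 and 1 (13.1, 7.22 and 0.915). Cells of 1 library are not replicates, and these shares and counts were given no test.

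The genes whose level followed each factor most closely were read from the same 24 sums, over 2749 genes with a mean of at least 50 CPM. *Eomes* was closest to the cytotoxic gene *Nkg7* and to the NK receptor genes *Klrd1* and *Klre1*, with Pearson r of 0.962, 0.941 and 0.936. *Maf* was closest to *Hif1a*, *Trp53inp1* and the costimulator gene *Icos* (r = 0.942, 0.902 and 0.898), and *Tox2* to the T cell signalling gene *Themis*, *BE692007* and *Trbv19* (r = 0.928, 0.912 and 0.899). *Tcf7* was closest to *Hipk1*, *Eif5* and *Vps13a* (r = 0.865, 0.851 and 0.851), *Prdm1* to *Rnf19a*, *Dgka* and *Xist* (r = 0.894, 0.879 and 0.852), and *Tbx21* to *Rpl3*, *Efhd2* and *Litaf* (r = 0.880, 0.867 and 0.867). *Lef1* and *Bcl6* both had *Rasa3* and *Ssh2* among their 3 closest genes, with r of 0.956 and 0.931 for *Lef1* and 0.915 and 0.933 for *Bcl6*. *Tox* was closest to *Gmfg*, *Pttg1* and *Pstpip1* (r = 0.963, 0.943 and 0.941) and *Id2* to *Clic1*, *Mrpl33* and *Ehd1* (r = 0.936, 0.915 and 0.910). Among the 10 genes themselves the highest values were 0.867 for *Lef1* and *Bcl6*, 0.827 for *Tox* and *Id2* and 0.783 for *Tox* and *Tox2*. The sums differ in depth, and low sums share 0 values, so these are descriptions with no test.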

How the data were processed

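Raw UMI counts per gene and cell were used as the authors deposited them. The authors made these counts with Cell Ranger 5.0.1 (library 1) and 6.1.2 (libraries 2 and 3) on mm10, per the file headers, from 10x 5′ gene expression libraries. Library 1 came without gene names here and took the gene order of the others. Its gene totals had a Spearman rho of 0.9501 and 0.9287 with libraries 2 and 3 in that order, and of 0.3619 and 0.3211 when shifted by 1 row. No other columns of per-sample values were present.

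Cells with at least 300 UMIs, at most 5000 genes and at most 20% mitochondrial UMIs were kept, after the study's methods. T cells held at least 2 UMIs of *Cd3e*, *Cd3d* or *Cd3g* and at most 2 of B cell, macrophage and plasmacytoid genes. Gates needed 1 UMI of the defining marker and each cell entered 1 gate, gamma delta first, then Ly49+, Foxp3+, CD8+ and CD4+. Groups set by 0 UMIs of a marker, such as *Foxp3*-negative or *Il21*-negative cells, can hold cells whose transcripts were missed. B cells needed 2 UMIs of *Cd79a*. No doublet caller was run. Cells with mixed markers stayed out of the Foxp3+, CD8+ and CD4+ gates. The Ly49+ gate set no condition on *Cd4*, *Cd8a* or *Cd8b1*, and the gamma delta gate none on *Cd8a*. Counts were summed per population and library where at least 10 cells were present, and levels are counts per 1000000 UMIs (CPM) of the sum. Differences were tested with edgeR 4.0.16 in R 4.3.3 (quasi-likelihood F test, TMM, filterByExpr, Benjamini-Hochberg adjustment over all genes tested, call at an adjusted p under 0.05), with the library as a block because the populations of a library come from the same mice. SE is the log2 difference divided by the square root of F. Replicates are libraries, 3 at most. With the block, p-values measure how far population differences vary from library to library. That spread was estimated from all populations of a fit and with help from other genes, almost wholly from other genes in the *Il21* comparison. The comparisons of *Cxcr6* with *Cxcr5* cells and of *Il21* cells rest on 2 libraries. Intervals and floors (3 UMIs) cover counting error only.

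Alternatives were DESeq2 1.42.0, no TMM, no filter, no block, each library left out, other gates, dividing cells left out, cells thinned to 1000 UMIs and at least 20 cells in a sum. The edgeR script was tested on simulated data. All 10 genes are named, and of 2 lists (32 transcription factors, 22 targets or companions) those called with the same direction in every library, at most the 2 with the largest difference in each direction. One gene of the second list counts in its totals and is not reported here by name. Likeness is Pearson's r of log2(CPM + 1), centred within library. The 10 genes, the lists and the gates were chosen with earlier results of these data known. Tables and motif searches used Python 3.11.15, numpy 2.4.6, scipy 1.17.1 and pandas 2.3.3.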

Additional observations from a re-analysis of the deposited data

How the results depend on the processing

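Of the 33 called differences 10 were kept under every alternative run and 23 were lost under at least 1, and none of the 33 changed direction. Without the replicate block the number of the 10 genes called was 1 for Foxp3+ and for *Havcr2* CD8+, 3 for NK and for gamma delta, 0 for Ly49+, 0 and 1 for *Cxcr6* against other and *Cxcr5* CD4+, and 0 for *Il21* cells (edgeR; where it was 0, 2, 4 and 3 genes for Ly49+, *Cxcr6* against other and *Il21* had an unadjusted p under 0.05), and the calls over all genes dropped from 630 to 61, 1096 to 259 (CD8+ against CD4+), 375 to 6, 996 to 452, 945 to 267, 424 to 115, 142 to 4, 193 to 27 and 324 to 1. There is 1 group of libraries, so no pairing between groups arises. After thinning the number of the 10 genes called was 1 (Foxp3+), 2 (*Havcr2*), 3 (NK), 3 (gamma delta), 1 (Ly49+), 3 (*Cxcr6* against other) and 1 (*Il21*). Over all genes thinning gave 332 (Foxp3+), 344 (NK), 322 (gamma delta) and 192 (Ly49+) of 4377. It gave 170 of 2218 (*Havcr2*), 102 of 3715 (*Cxcr6* against other) and 142 of 2666 (*Il21*). With no filter on low counts 5 (CD8+), 8 (NK) and 4 (Ly49+) of the 10 were called, beside 1452, 1343 and 642 of all 17212 genes. DESeq2 gave 1 and 2 for *Cxcr6* cells against other and *Cxcr5* CD4+ cells and 0 for *Il21* cells (also 0 at an unadjusted p under 0.05), and 201, 28 and 31 genes in all for *Havcr2*, *Cxcr6* against other and *Il21* where edgeR gave 375, 142 and 324; it gave an adjusted p for 629 of 7083 genes in *Cxcr6* against other. In *Cxcr6* against *Cxcr5* cells DESeq2 called 144 of 3650 genes. Asking 2 UMIs of the marker gave 5 (Ly49+) and 1 (*Il21*), and no other-lineage UMI gave 1 (*Il21*), as did leaving out cells with plasma cell UMIs, an alternative chosen after seeing the data. Over all genes these settings called 506 of 7800 (Ly49+) and, for *Il21*, 98 of 2702, 108 of 5282 and 126 of 6646. Leaving out each library in turn gave 1 to 2 (Foxp3+), 3 to 4 (CD8+), 2 to 5 (*Havcr2*), 4 to 5 (NK), 4 to 5 (gamma delta), 1 to 3 (Ly49+), 3 to 5 (*Cxcr6* against other) and 1 to 4 (*Cxcr6* against *Cxcr5*, where without library 1 or 2 the lone *Cxcr5* sum is assumed to vary like the other sums), with single-library effects given beside each gene. It gave 3 for *Il21* cells, where only library 3 could be left out, because no residual degrees of freedom remained otherwise. Over all genes, without libraries 1, 2 and 3 in turn, 313, 256 and 623 (Foxp3+) of 6577, 7060 and 10125 were called. Of the same totals 495, 561 and 1128 (CD8+), 536, 481 and 1028 (NK), 388, 511 and 1006 (gamma delta) and 324, 217 and 328 (Ly49+) were called. For *Havcr2* it was 258, 224 and 296 of 6270, 5786 and 8340. For *Cxcr6* against other it was 51, 80 and 155 of 5568, 6201 and 7747. Asking 2 UMIs of the marker left no *Cxcr5* sum. Some differences not called with all libraries were called by edgeR with a library left out, and all but *Tcf7* in gamma delta cells also under other alternatives: without library 1, *Tcf7* in NK (log2 −1.31, adjusted p = 0.0487) and gamma delta cells (log2 −0.96, adjusted p = 0.0181) and *Tox2* in Ly49+ cells (log2 −1.55, adjusted p = 0.00187), and without library 3, *Maf* in *Havcr2* (log2 0.79, adjusted p = 0.0426) and NK cells (log2 −1.37, adjusted p = 0.0126).

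The differences that changed sign were not called, and values over the left-out libraries are given as ranges. In Foxp3+ against conventional CD4+ cells thinning gave log2 differences of 0.21 for *Lef1*, −0.11 for *Prdm1* and −0.19 for *Id2*, and *Prdm1* was −0.023 without dividing cells and −0.049 to 0.089 over libraries. *Prdm1* in CD8+ against CD4+ cells was −0.21 to 0.0029 over libraries, and *Bcl6* in *Havcr2* cells 0.021 with 2 marker UMIs. In NK cells *Lef1* was −0.073 without the filter, −0.065 without the block, −0.11 without dividing cells, −0.053 after thinning and −0.45 to 0.29 over libraries, and *Bcl6* −0.019 without dividing cells and −0.25 to 0.54 over libraries. In gamma delta cells *Bcl6* was −0.037 with DESeq2, −0.00419 without the filter, −0.12 without the block, −0.010 with 1 UMI of the T genes, −0.074 without dividing cells and −0.52 to 0.18 over libraries, *Eomes* was −0.60 to 0.18 over libraries, and *Id2* −0.15 with 2 marker UMIs, −0.066 after thinning and −0.035 to 0.18 over libraries. In Ly49+ cells *Bcl6* was −0.00520 without the block, −0.043 with 1 UMI of the T genes, −0.28 with 2 marker UMIs and −0.38 to 0.35 over libraries, and *Eomes* −0.10 to 0.15 over libraries. In *Cxcr6* cells against other CD4+ cells *Tox2* was 0.32 after thinning, 0.023 with at least 20 cells and −0.43 to 0.024 over libraries, and against *Cxcr5* cells *Lef1* was 1.38 after thinning and −0.81 to 0.76 over libraries, and *Tox* −0.45 to 0.087 over libraries. The cause of these changes was not tested.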

Other observations

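The 1763 T cells with no *Cd4* or *Cd8* UMI, which entered no comparison, held 132.9, 175 and 99.3 CPM of *Tcf7*, 321, 243 and 318 CPM of *Maf* and 24.0, 9.43 and 37.8 CPM of *Eomes* in libraries 1 to 3. Their *Cd40lg*, 204, 169 and 134 CPM, lay above that of CD8+ cells, 9.12, 8.06 and 3.44 CPM. Outside the T cells, the 1865 macrophages of library 2 held 25.1 CPM of *Bcl6*, from 353 UMIs, and 376.5 CPM of *Id2*, against 22.1 and 214 CPM in the conventional CD4+ cells of that library.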
